A study of Mus musculus with 4 samples.

Results

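The IgLON genes Lsamp, Ntm, Opcml, Negr1 and Iglon5 encode small neuronal cell adhesion proteins, and the 77 peaks described here are those whose summit lay in the span of one of these 5 genes or within 10 kb of it, out of 35505 peaks on the 19 autosomes and X. They come from TOP2Bcc-seq, which maps DNA caught in a covalent complex with topoisomerase IIβ, in cultured wild-type cortical neurons from embryonic day 16 Swiss-Webster mice. All libraries came from cultures given etoposide, a drug that blocks religation of the cut DNA, at 50 µM for 30 min. The labels describe 2 ChIP libraries made with an antibody to TOP2B and 2 input libraries, with no untreated culture. The values used here are a single peak list pooled by the authors, so no value has a standard deviation or an n, no test between samples was possible, and library depths are unknown. Intervals given below are exact 95% intervals that cover counting error only. The list holds positions in DNA and no expression, so the cell type named in the labels was not checked against markers, and whether the IgLON genes were transcribed in these cultures was not analysed here.

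IgLON proteins are held on the neuronal surface by a lipid anchor, carry immunoglobulin domains, and bind each other within and across the family. They take part in neurite outgrowth, axon targeting and synapse formation. Most genes of the family are among the longest in the genome, while Iglon5 is short. TOP2B cuts both strands of DNA, passes another duplex through the gap and reseals it. It is the main type II topoisomerase of neurons that no longer divide, and topoisomerase inhibitors are known to affect the expression of very long neuronal genes.

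All 5 symbols were found in RefSeq's GRCm38.p6 gene table, which is the build named for the peaks. Lsamp spans chr16:39984254-42181679 (2197 kb, plus strand), Opcml chr9:27790716-28925410 (1135 kb, plus strand), Ntm chr9:28994749-29963269 (969 kb, minus strand), Negr1 chr3:156561790-157316464 (755 kb, plus strand) and Iglon5 chr7:43472901-43490211 (17.3 kb, minus strand). Opcml and Ntm lie beside each other and point towards each other, with 69.3 kb between their 3′ ends. Exons were not part of the annotation used, so summits inside a gene are not divided into exonic and intronic.

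The promoter windows below, from RefSeq's GRCm38.p6 sequences, run from 250 bases before to 50 bases after a listed transcription start. Both windows of Ntm are shown because the strongest IgLON summit lay downstream of both, within 1 kb of the inner start, and that of Negr1 because a peak with a q of 0.05 or less lay 8321 bp downstream of it. Capitals mark CG dinucleotides, and each is written 5′ to 3′ on the gene's strand.
Ntm inner start, chr9:29412636-29412935, minus strand: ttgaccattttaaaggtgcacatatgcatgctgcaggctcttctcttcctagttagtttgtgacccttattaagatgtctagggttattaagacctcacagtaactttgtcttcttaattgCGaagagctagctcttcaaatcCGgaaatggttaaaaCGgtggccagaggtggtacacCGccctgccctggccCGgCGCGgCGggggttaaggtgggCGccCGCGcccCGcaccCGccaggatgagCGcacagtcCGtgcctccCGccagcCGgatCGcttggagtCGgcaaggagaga
Ntm outer listed start, chr9:29413403-29413702, minus strand: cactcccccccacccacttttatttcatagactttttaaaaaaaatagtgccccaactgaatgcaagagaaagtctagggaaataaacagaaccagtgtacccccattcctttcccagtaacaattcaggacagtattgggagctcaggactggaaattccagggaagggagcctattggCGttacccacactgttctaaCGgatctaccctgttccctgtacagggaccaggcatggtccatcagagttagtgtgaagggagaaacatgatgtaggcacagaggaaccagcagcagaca
Negr1 start, chr3:156561544-156561843, plus strand: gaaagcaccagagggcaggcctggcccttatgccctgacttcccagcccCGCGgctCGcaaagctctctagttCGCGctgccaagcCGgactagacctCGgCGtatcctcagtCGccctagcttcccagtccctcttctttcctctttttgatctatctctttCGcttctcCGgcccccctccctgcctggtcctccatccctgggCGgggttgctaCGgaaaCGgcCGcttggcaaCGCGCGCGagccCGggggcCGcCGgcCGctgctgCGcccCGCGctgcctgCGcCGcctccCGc

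The Ntm windows lie 767 bp apart, measured between their starts, and differ in base composition. The inner window held 19 CG dinucleotides and was 55.7% G and C, against 2 CG dinucleotides and 47.3% in the outer window. The Negr1 window held 29 CG dinucleotides and was 68.0% G and C. The median over 21020 promoter windows of protein-coding genes was 13 CG dinucleotides and 56.7% G and C. Of 5 short motifs searched on both strands, GGGCGG (the GC box) was found in the inner Ntm window and in those of Negr1 and Iglon5, as in 46.6% of all windows. TGACGT, the core of the cAMP response element, was found at the inner start of Lsamp and in 8.57% of all windows. TATAAA, the TATA box, was in none of the 7 windows of the family and in 12.7% of all windows. The AP-1 motif TGACTCA was likewise in none of the 7 and in 4.69% of all windows. AGGGGGC, a part of the CTCF motif, was in none of the 7 and in 13.0% of all windows.

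Cleavage complexes were called in all 4 long IgLON genes and not in Iglon5. Lsamp held 33 summits (interval 22.7 to 46.3), Opcml 19 (11.4 to 29.7), Negr1 13 (6.92 to 22.2) and Ntm 12 (6.20 to 21.0). In all, 4 of 5 IgLON genes had a summit within 10 kb, against 53.4% of all 21631 protein-coding genes, a share that depends on length, since 98.7% of the 223 other genes of 500 kb or more had one. Of the 77 summits, 76 lay inside a gene span. The exception lay between Opcml and Ntm, at 28990179 on chromosome 9, 4570 bp past the 3′ end of Ntm, with a fold over control of 3.11 and a q of 0.0390. The nearest summits left out by the 10 kb limit lay 10360 bp downstream of Lsamp (fold 2.92, q 0.0542) and 13558 bp downstream of Negr1 (fold 2.77, q 0.110). Lsamp ranked 2 by number of summits among protein-coding genes and 4 by length, Opcml 25 and 40, Negr1 79 and 109, and Ntm 93 and 62. Ties took the best place, and 2 other genes shared the count of Opcml, 13 that of Negr1 and 25 that of Ntm.

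**Figure D1:**
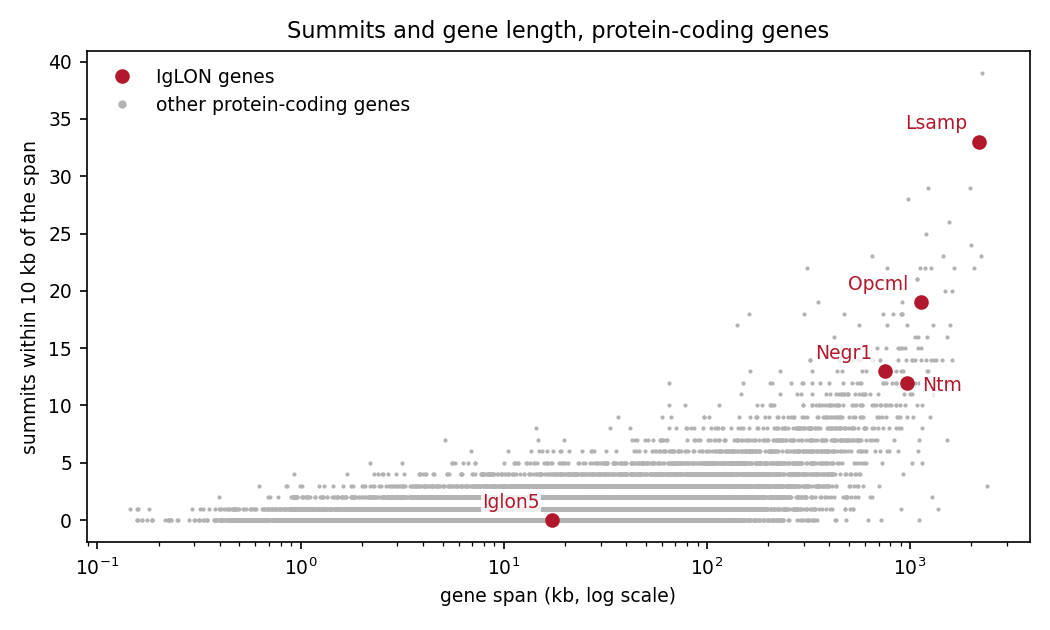
Each point is a protein-coding gene, with its span in kb on a log axis and the number of summits within 10 kb of the span on the other axis; IgLON genes are red and named. Lsamp, with 33 summits, stands near the top right, Opcml, Negr1 and Ntm lie among genes of like length, and Iglon5 lies at 0.

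Per length, the long IgLON genes lay close together. Negr1 had 1.68 summits per 100 kb of span and margins (interval 0.894 to 2.87), Opcml 1.65 (0.991 to 2.57), Lsamp 1.49 (1.02 to 2.09) and Ntm 1.21 (0.627 to 2.12). Neighbours in this order did not differ beyond counting error. The ratio of Negr1 to Opcml was 1.02 (0.463 to 2.18), that of Opcml to Lsamp 1.11 (0.594 to 2.00) and that of Lsamp to Ntm 1.23 (0.617 to 2.61). Between the extremes, Negr1 and Ntm, the ratio was 1.38 (0.582 to 3.31). Together the 4 genes had 1.50 summits per 100 kb over 5.14 Mb (1.18 to 1.87), against 1.24 over the other genes of 500 kb or more. The ratio of 1.21 had an interval of 0.949 to 1.51, which includes 1. The other long genes include 11 on X, whereas all IgLON genes are autosomal.

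Genes of like length were then taken for each member, from 0.5 to 2 times its span. Lsamp had a higher density than 35 of 43 such genes, whose median was 1.07 per 100 kb and whose median number of summits was 14. Since Lsamp ranks 4 by length among protein-coding genes, nearly all of these 43 were shorter. Their median number of summits is therefore not matched to its span. Opcml exceeded 127 of 166 genes with a median of 1.24, and Negr1 267 of 376 genes with a median of 1.32. Ntm exceeded 110 of 232 genes with a median of 1.27, so that it lay near the middle of its length class. The intervals of all 4 members overlapped the interquartile range of their length classes.

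**Figure D2:**
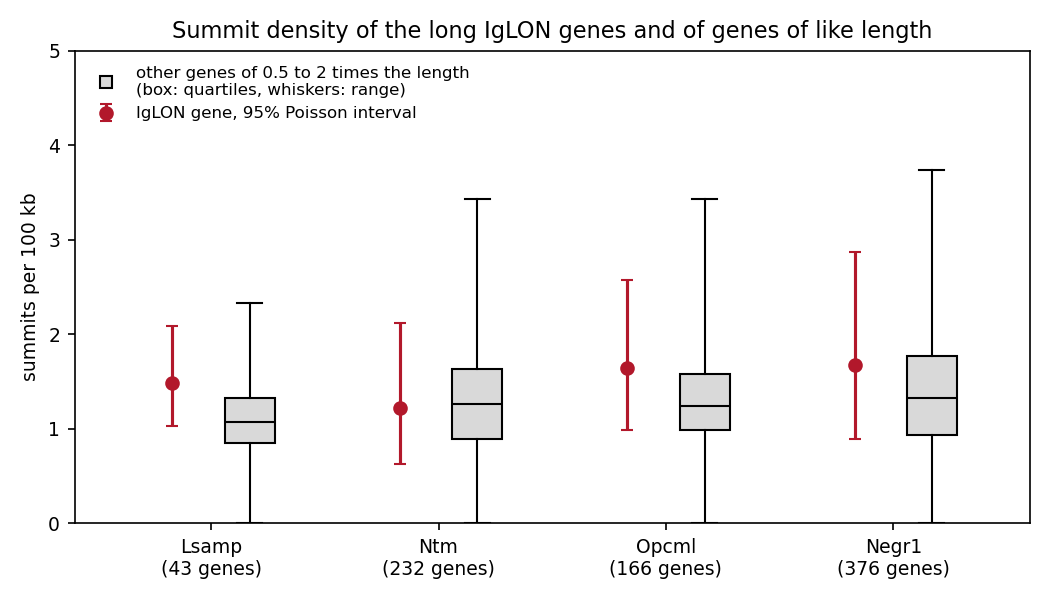
Red points give summits per 100 kb for the 4 long IgLON genes with exact 95% Poisson intervals, and grey boxes give the quartiles and range of other protein-coding genes of 0.5 to 2 times the length. Lsamp, Opcml and Negr1 lie above the median of their boxes, at 1.49, 1.65 and 1.68, and Ntm lies just under it at 1.21.

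The genes nearest to Lsamp in span gave a like picture. The next longer were Cntnap2, a neurexin-family adhesion gene, with 23 summits (1.02 per 100 kb), and Ptprd, a receptor tyrosine phosphatase gene, with 39 (1.70). The next shorter were Lrp1b, a lipoprotein receptor-related gene, with 22 (1.06), and Macrod2 with 24 (1.19). For Ntm these genes were Epha6, an ephrin receptor gene, with 9 summits, Sdk1, a sidekick adhesion gene, with 28, Cadm2, a synaptic adhesion gene, with 17, and Sox5, a transcription factor gene of cortical projection neurons, with 14. For Opcml they were Kcnip4, a potassium channel-interacting protein gene, with 15, Ptprt with 14, Dab1, the adaptor gene of reelin signalling, with 22, and Nrg3, a neuregulin gene, with 7. For Negr1 they were Dlgap2, a postsynaptic scaffold gene, with 12, Zbtb20 with 9, Dgkb, a diacylglycerol kinase gene, with 10, and Tenm4, a teneurin gene, with 12. The genes closest in density, taken from a narrower length range, were the synaptic scaffold gene Dlg2 for Lsamp (1.46 per 100 kb, of 6 genes), Ptprt for Ntm (1.21, of 69), Wwox for Opcml (1.61, of 54) and Gm38666 for Negr1 (1.68, of 84).

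The folds of IgLON summits were close to those of the whole list. Fold is the authors' value for ChIP pileup at the summit divided by the control level, with 1 added to each by the convention of the caller. It ran from 1.97 to 3.63 over the 77 summits, with a median of 2.59 (quartiles 2.47 and 2.94), against a median of 2.77 (quartiles 2.49 and 2.94) over all peaks. The commonest value, 2.59, was shared by 16 summits, because pileups are small whole numbers. Pileups reconstructed from fold and p ran from 12 to 20 fragments, with a median of 15, the same as over all peaks. The control level was the commonest of the list, 4.78, at 54 of 77 summits (70.1%, interval 58.6 to 80.0), against 71.1% of all peaks, and no member exceeded a level of 7.11. A fold above 2.77 was found at 23 of 77 summits (29.9%, 20.0 to 41.4), against 37.8% in the other long genes and 38.2% of all peaks.

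A deposited q of 0.05 or less was reached by 13 of 77 IgLON summits (16.9%, interval 9.31 to 27.1), against 23.4% of all peaks and 23.2% of peaks in the other long genes. Both of these shares lie inside the interval. Of the 13, Lsamp held 5, Negr1 4, Opcml 2 and Ntm 2. The median q of the family was 0.110, equal to that of all peaks, so most single positions given here rest on weak evidence.

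**Figure D3:**
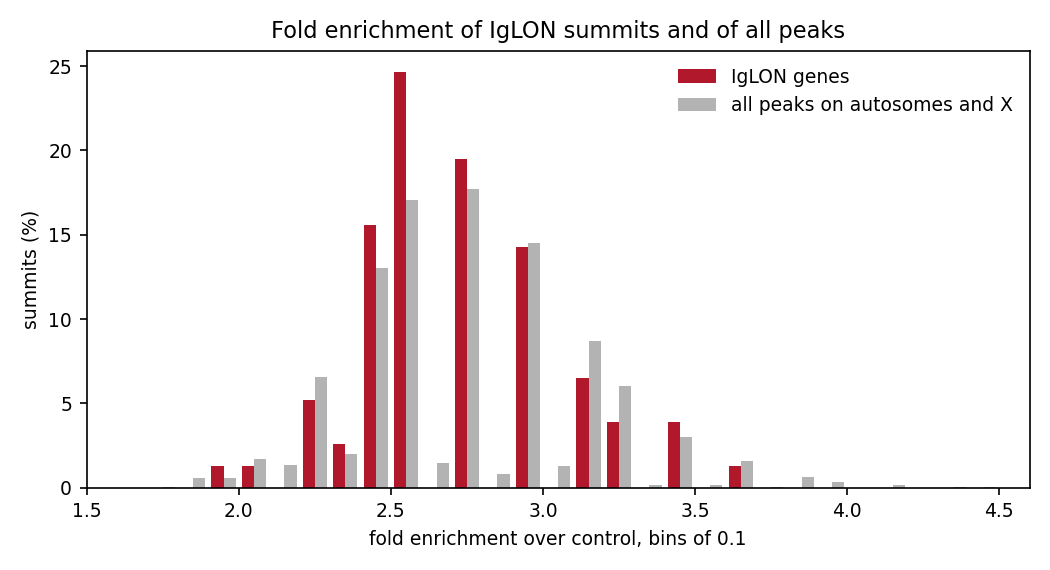
Bars give the percentage of summits in each bin of 0.1 of fold over control, in red for the 77 IgLON summits and in grey for all 35505 peaks. Both distributions centre between 2.4 and 3.0, with a median of 2.59 for the IgLON summits and 2.77 for the list, and no IgLON summit lies above 3.63.

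Ntm, which encodes neurotrimin, an adhesion protein of the developing brain, held the strongest summit of the family. It lay at 29412191 on chromosome 9, in a peak at chr9:29412106-29412334, with a fold of 3.63, 20 fragments over a control level of 4.78, and a q of 0.00437. Its rank by fold was 479 of 35505, the best place of a tie, since 1012 peaks had a fold at least as high. The summit was 494 bp downstream of the inner start of Ntm and 1261 bp downstream of the outer listed start, whose sequences are given above. The peak itself lay downstream of the inner promoter window, with 301 bp between them. A weaker summit (fold 2.42, q 0.272) lay 783 bp farther into the gene, at 29411408. Both listed starts lie about 550 kb inside the gene span, and no promoter window was listed at the 5′ end of that span.

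Of the 5 IgLON genes, Ntm alone (1 of 5) had a summit within 1 kb of a listed start, against 4.8% of all 17274 genes with a listed start. Of 179 protein-coding genes of 500 kb or more with a listed start, Ntm included, 15 (8.38%) had such a summit. Ntm had the highest fold of the 15, followed by Sdk1 with 3.29 and by Ank2, Cadm2 and L3mbtl4 with 2.94 each. Among all 831 summits within 1 kb of a listed start, 28 (3.37%) had a fold of at least 3.63, against 2.85% of all peaks. The comparison with listed starts was chosen after the Ntm summit had been seen. Taken by the ends of the gene span instead, 0 of 5 IgLON genes had a summit within 1 kb of an end, against 8.3% of all protein-coding genes and 6.28% of the other genes of 500 kb or more.

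The remaining summits of Ntm were weaker than its strongest. Besides the summit 4570 bp past its 3′ end, they had folds of 2.77 or less, and those at 29144806 and 29541621 tied for the highest of these (fold 2.77, q 0.110). The widest peak of the gene, 390 bp at chr9:29364186-29364575, had a fold of 2.41. With the span cut into 5 equal segments in the direction of transcription, the first 2 segments held 1 summit each, and the following ones 4, 3 and 2. The longest stretch between neighbouring summits ran for 242 kb in the 5′ part of the span. Both it and the first 2 segments lie upstream of both listed starts, which are about 550 kb into the span. Such a stretch needs a pair of summits, so genes of like length without a pair are left out here and below. The shares therefore miss the emptiest genes. Of the 224 genes that remained for Ntm, 79 (35.3%) had a stretch at least as long.

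Lsamp encodes the limbic system-associated membrane protein, which takes part in the targeting of limbic connections. Its strongest summit, at 40575130 on chromosome 16, had a fold of 3.46 and a q of 0.0102, with 19 fragments, and lay 591 kb into the gene. On either side of it, summits at 40505105 (fold 3.11) and 40599235 (fold 2.98) both had a q of 0.0390, with a weaker summit at 40588459 (fold 2.77, q 0.110) between it and the second of these. The other members with a q under the limit were at 41785676 (fold 3.29) and 41630435 (fold 3.28), both with a q of 0.0208, in the 3′ part of the gene. All 5 thus lay more than 500 kb from the 5′ end of the span. Measured from the inner listed start instead, those at 41785676 and 41630435 lay 252850 and 97609 bp downstream. The summit nearest to the outer start lay 46.0 kb downstream of it (fold 2.43, q 0.213), and the one nearest to the inner start, which is 1549 kb into the gene, lay 8.49 kb upstream of that start (fold 2.42, q 0.272). The widest IgLON peak, 468 bp at chr16:40994689-40995156, was in Lsamp with a fold of only 2.59, and 1.01% of all peaks were wider. Summits per segment of the span numbered 6, 8, 5, 4 and 10. The longest stretch between neighbouring summits was 201 kb, and 35 of 41 genes of like length with a pair of summits had one at least as long.

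Opcml, which encodes the opioid-binding cell adhesion molecule, had its strongest summit at 27892676 on chromosome 9, 102 kb into the gene, with a fold of 3.46 and a q of 0.0102. The next, at 28887235, had a fold of 3.11 and a q of 0.0390 and lay 38.2 kb before the 3′ end. Summits at 28310329 and 28717222 tied for the next place, each with a fold of 2.94 and a q of 0.0675. The summit nearest to the start lay 8.83 kb downstream of it, at 27800133 (fold 2.92, q 0.0542). The widest peak was 345 bp, at chr9:28321290-28321634, with a fold of 2.27. Summits per segment numbered 7, 1, 6, 3 and 2, so the first segment held the most. The longest stretch between neighbouring summits was 170.0 kb. Of 161 genes of like length with a pair of summits, 123 (76.4%) had one at least as long.

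Negr1, the neuronal growth regulator gene, whose human counterpart is known from genetic studies of body weight, had its strongest summit at 156756982 on chromosome 3, with a fold of 3.46 and a q of 0.0102. Another at 156662775 had a fold of 3.24 and a q of 0.0173, in a 371 bp peak that was the widest of the gene. Those at 157160542 and 156570115 both had a fold of 3.11 and a q of 0.0390, and the last was the nearest to the start. Negr1 had 4 of 13 summits (30.8%) at or under the q limit, the highest share in the family, against 23.4% of all peaks. No interval was computed for this share, and 13 summits are too few to set Negr1 apart. Between 156855909 and 157136510 no summit was called over 281 kb, or 37.2% of the span, which left the middle segment empty. A gap at least as long was found in 52 of 360 genes of like length with a pair of summits (14.4%).

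Iglon5, whose protein is known as the target of autoantibodies in a human sleep and neurodegenerative disorder, had 0 summits in 37.3 kb of span and margins. By the limit of 3 counts, a count of 0 allows a density of up to 8.04 per 100 kb, and the exact 95% interval reaches 9.89. Both are above the densities of the long members, so a lower density was not detectable at this size. Of 7809 genes of like length, 3828 (49.0%) likewise had none. Among its neighbours in span, Tdo2, Gm32687 and Pcdh12 had 0 summits and Coq5 had 2. The nearest summits lay 37.1 kb past its 3′ end, inside the lens gene Lim2, with a fold of 2.77, and 118 kb before its start, inside Zfp819, with a fold of 2.94.

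**Figure D4:**
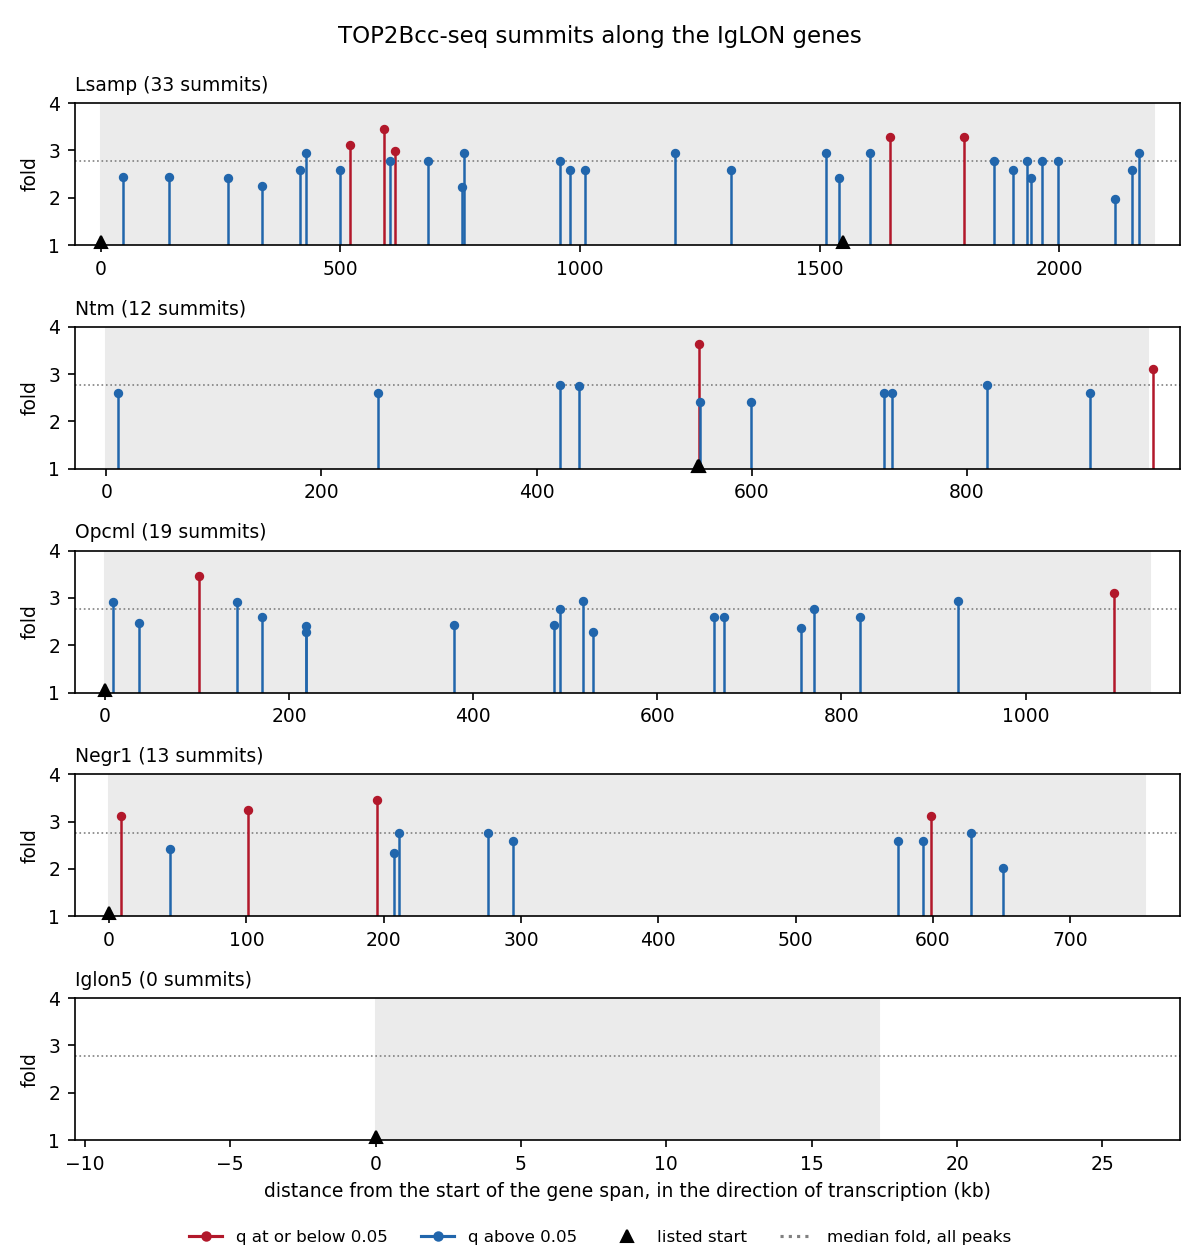
Each panel is an IgLON gene, with distance from the start of the span in kb in the direction of transcription, the span in grey, and summits as lines up to their fold over control; red marks a q of 0.05 or less and triangles mark listed starts. The Ntm summit of 3.63 stands beside the inner starts, Negr1 has an empty stretch of 281 kb, and Iglon5 is empty.

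Summed over the 4 long members, the segments of the span held similar numbers of summits, although single genes had sparse or empty ones. Over the 5 segments from start to end, the 76 inside summits numbered 17, 15, 15, 13 and 16. The first segment held 22.4% of summits in the IgLON genes, against 18.3% in 173 other long genes of known strand. The last segment held 21.1% in the IgLON genes, against 24.0% in the other long genes. Neighbouring IgLON summits had a median distance of 47.1 kb, against 41.4 kb over the list. Another summit within 5 kb was found for 8 of 77 IgLON summits (10.4%, interval 4.59 to 19.4), against 14.7% in the other long genes and 17.3% over the list. These 8 formed a pair in each of the 4 genes, and the closest pair, 769 bp apart, lay in Opcml. The summits of a pair count together, so the interval for this share, which takes them as independent, is too narrow. Peaks at the smallest width of the list, 190 bp, made up 25 of 77 (32.5%, interval 22.2 to 44.1), against 23.6% in the other long genes and 22.4% over the list. Only 4 summits also lay in another listed gene, namely in the pseudogene Gm18235, the long noncoding RNA gene Gm46551 and the predicted protein-coding gene Gm52229 within Lsamp, and in the noncoding Gm15520 within Ntm. The annotation gives such summits to both genes.

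**Figure D5:**
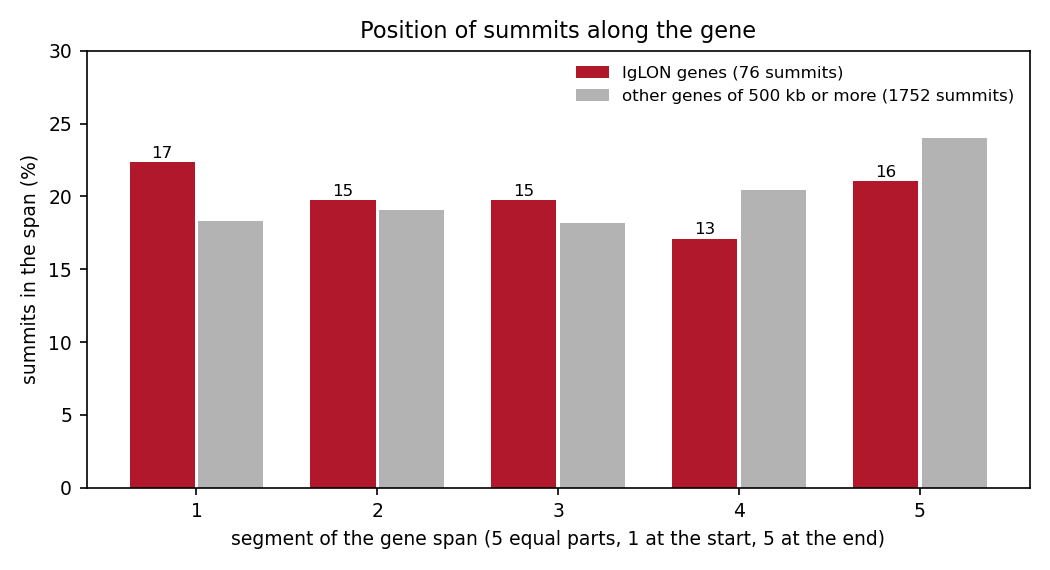
Bars give the percentage of summits inside the span in each of 5 equal segments of the gene, in red for the IgLON genes with counts above the bars and in grey for other genes of 500 kb or more. IgLON counts are 17, 15, 15, 13 and 16 from start to end, and no segment of the IgLON genes holds under 17.1% or over 22.4%.

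Other genes of the immunoglobulin superfamily with roles in neural adhesion were close to the IgLON genes in density. Over the 5 IgLON genes the density was 1.49 summits per 100 kb (interval 1.17 to 1.86), against 1.60 (1.40 to 1.83) over 37 such genes with 221 summits. The ratio was 0.930 (0.708 to 1.21). The 37 genes differ widely in length, so this ratio is not matched for length. Taken gene by gene, the 9 of 500 kb or more had a median of 1.70 per 100 kb (range 0.481 to 2.82). That median is not a pooled density and cannot be set against 1.49. The single densities of the 4 long IgLON genes ran from 1.21 to 1.68. Summed over all protein-coding genes outside the IgLON family, the density was 1.75. In the list of adhesion genes 32 of 37 had a summit, against 53.4% of all protein-coding genes and 98.7% of non-IgLON genes of 500 kb or more. A summit within 1 kb of an end was found in 4 of the 37, against 8.3% of all protein-coding genes. The genes of the list with most summits were Sdk1 with 28, the contactin gene Cntn5 with 22 and Cadm2 with 17. Mdga2, a regulator of neuroligins, followed with 15, and the contactin gene Cntn4 with 14. Peaks with a q of 0.05 or less made up 16.9% in the IgLON genes and 26.2% in the list. Their densities were 0.251 and 0.420 per 100 kb, with a ratio of 0.598 (0.301 to 1.10) that includes 1.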

How the data were processed

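Peak values came from 1 list in narrowPeak layout that the authors deposited without column names, after pooling libraries. The submitters' processing notes name the tools FastQC, Trimmomatic, BWA, SAMtools and MACS2, and the builds mm10 and GRCm38.p6. Not given in the sources used here are tool versions, caller settings, the handling of duplicates and the identity of the pooled libraries. By column order and MACS2 conventions, the authors' deposited fold at each summit is the linear ratio of ChIP pileup to control, and the deposited −log10 p and −log10 q belong to the summit. The deposited display score was not used. The smallest −log10 p in the deposited list was 2.00, so weak sites are included.

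Summits were made 1-based and placed in genes of RefSeq's GRCm38.p6 table, a C57BL/6J assembly, whereas the cultures were from Swiss-Webster mice. Strand came from RefSeq promoter windows, which cover part of the genes. Pileup was solved from fold and p within 0.002 of −log10 p (35495 of 35505 peaks, all 77 members). Intervals were exact (Poisson, Clopper-Pearson, or conditional binomial for ratios). With a pooled list no test was run. Python 3.11.15, SciPy 1.17.1 and pandas 2.3.3 were used, after counting and pileup steps were tested on simulated data. The 34 entries on scaffolds were left out. Named genes were the members, their neighbours in length and density, the 5 related genes with most summits and genes holding a member's summit. Named peaks were each member's 3 highest folds, the widest, the nearest to a start and those of low q. Members and lists were chosen with earlier results of these data known.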

Additional observations from a re-analysis of the deposited data

How the results depend on the processing

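Of 62 values recomputed under other settings, 47 stayed close to those reported, which for a count means within 1.5 times and for a density, median, share or percentile means inside its 95% interval. Some of the 47 could not have moved, so this number does not measure robustness. A count of 0 stays 0 in a stricter list, as for Iglon5 and for summits at gene ends. The 1 kb window at gene ends also does not depend on the margin around the span. Counting by gene span alone, within 50 kb, by any base of the peak interval, or with entries within 1 kb merged gave 75 to 86 summits. Stricter lists lower counts by construction. With fold at or above the list median, 36 summits remained (0.696 per 100 kb), with a median fold of 2.94 and 36.1% at q of 0.05 or less. With q of 0.05 or less, 13 remained (0.251 per 100 kb; 0.420 in the related adhesion genes), with a median fold of 3.24 and, by construction, 100% at that q. By listed starts instead of span ends, a choice made after seeing the data, 1 of 5 genes had a summit within 1 kb. The percentile of Negr1 by density was 71.0 among genes of 0.5 to 2 times its length and 78.6 in a narrower length range. With autosomes only, the percentiles of the long members were slightly lower. They went from 81.4 to 79.5 for Lsamp, 76.5 to 75.6 for Opcml, 71.0 to 70.0 for Negr1 and 47.4 to 45.0 for Ntm. No paired analysis was possible because the list pools the libraries, and no library could be left out for the same reason. Unknown depth limits what an absent summit shows.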

Other observations

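Outside the limit of 10 kb, the stretch before Opcml held a stronger peak than any IgLON gene. Its summit, at 27742984 on chromosome 9, lay 47.7 kb upstream of the span, outside listed genes, with a fold of 4.15, 23 fragments and a q of 0.00013. It ranked 39 by fold among the 35505 peaks, with tied peaks given the best place.

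The densities of the genes were also set beside those of 1 Mb on either side, beyond the margin and without other members, a comparison chosen after the data were seen. Between Opcml and Ntm only 49.3 kb remained, with 0 summits. The flanks of these 2 genes were therefore almost wholly the 1 Mb upstream of each. Lsamp had 1.49 summits per 100 kb, against 0.950 in its flanks (ratio 1.57, exact interval 0.865 to 2.92). Opcml had 1.65 against 1.33 (1.23, 0.586 to 2.66), and Negr1 1.68 against 1.65 (1.02, 0.491 to 1.98). Ntm had 1.21 against 2.76, a ratio of 0.439 with an interval of 0.204 to 0.888 that leaves out 1, among 4 such ratios. The 1 Mb upstream of Ntm, chr9:29973270-30973269, held 29 summits. It overlaps the protein-coding genes Snx19, Adamts15 and Adamts8, which held 1 of them, and 24 lay outside listed genes. Folds there ran from 1.94 to 3.46, and 6 summits had a q of 0.05 or less. The flanks of Iglon5 held 35 summits, or 1.75 per 100 kb.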
